A study of Mus musculus with 4 samples.

Results

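The insulin-like growth factor (IGF) family genes described here are the 6 binding protein genes *Igfbp2* to *Igfbp7*, the ligand genes *Igf1* and *Igf2*, and the receptor genes *Igf1r* and *Igf2r*. They were taken by gene symbol and are 10 of the 23924 genes of the expression matrix. They were chosen by their FPKM in transgenic against wildtype cells, so these differences are given below as a description, and no p-value is printed for a member.

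IGF1 and IGF2 are secreted peptides that act through the receptor tyrosine kinase IGF1R, which signals to PI3K and AKT and favours growth and survival of mesenchymal cells such as fibroblasts. IGF2R, also the cation-independent mannose 6-phosphate receptor, binds IGF2 at the cell surface and takes it to lysosomes for degradation. The secreted IGF-binding proteins (IGFBPs) hold the ligands in the medium or the matrix, where they can block or prolong their action, and proteases release the ligands by cleaving them.

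RNA-seq was performed on polyadenylated RNA of mouse tail tip fibroblasts in 4 libraries, 2 wildtype (WT, +/+) and 2 transgenic (TG, Tg2087/+). TG cells came from hemizygous animals of the line C57BL/6J-TgBAC8-2087, which carries a segment of the X-inactivation center with *Xist* on an autosome under the native *Xist* promoter, and WT cells came from littermates. All cells were male, immortalized with the SV40 large T antigen and tetraploid, so both genotypes share the immortalization and chromosome gain. The sources used here give neither the age of the animals nor whether replicate libraries stem from different animals or cultures, so the spread between them may be technical.

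The libraries held 9465712 to 14639946 counted fragments, called reads here. *Xist*, the RNA encoded by the transgene, was listed at 0 FPKM in WT 1, at 0.108 in WT 2 and at 2.31 and 2.28 in the TG libraries. FPKM is a fragment count scaled to gene length and to the size of the library, so levels of different genes can be compared per length. Of the 3 genes with 0 reads in WT 1 and at least 100 reads in both TG libraries, *Xist*, *Igfbp3* and *Ramp3*, all had reads in WT 2, at 4.65% to 7.16% of the TG mean. For the binding proteins that were higher in TG, and for *Ramp3*, log2 differences are therefore also given without each WT library. The fibroblast genes *Col1a1* and *Vim* were abundant, while *Lum* was listed at 0 in all libraries and *Dcn* was at most 0.879 FPKM. The summed level of 10 fibroblast markers was 4910 and 4624 FPKM in WT and lower in TG, at 3944 and 4223. Of the 8 tested, none was called by limma, beside 0.469% of all genes tested called down-regulated and 0.607% up-regulated. The summed level of 8 smooth muscle and pericyte markers was 8710 and 8972 FPKM in WT and 4081 and 4766 in TG. Of the 6 tested, 2, *Cnn1* and *Lmod1*, were down-regulated, beside 0.469% of all genes tested. Summed levels were at most 3.17 FPKM for keratinocyte and 0.603 FPKM for endothelial markers, and 5.21 to 12.3 FPKM for leukocyte markers, with *Ptprc* at 0 in every library. Schwann cell and melanocyte markers summed to 0.559 and 0.732 FPKM in WT and 2.72 and 2.94 in TG. Chondrocyte and bone markers summed to 9.65 and 11.3 FPKM in WT and 12.5 and 15.7 in TG. Of the 3 tested, 1, *Sox9*, was up-regulated, beside 0.607% of all genes tested. Fewer cells of a type and less RNA per cell cannot be told apart in these data. The part of the fibroblast, smooth muscle, Schwann cell, melanocyte, chondrocyte and bone markers in the differences below was not tested.

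*Igfbp2* and *Igfbp5*, which were lower in TG, and *Igfbp3* and *Igfbp6*, which were higher, differed the most among the members. The windows around their start sites are shown to let the neighbouring pair on chromosome 1 be compared with the other pair. Each runs from 250 bases before the RefSeq start site to 50 bases from it, in the direction of transcription, on GRCm38.p6. Capitals mark, on either strand, the TATA box letters TATAAA, the GC box letters GGGCGG, the CCAAT box, the E-box letters CACGTG, the AP-1 site letters TGANTCA, or the TEAD site letters GGAATG. No match overlapped another in these windows. The windows lie at chr1:72824230-72824529 on the plus strand for *Igfbp2*, chr1:72874816-72875115 on the minus strand for *Igfbp5*, chr11:7213874-7214173 on the minus strand for *Igfbp3* and chr15:102143936-102144235 on the plus strand for *Igfbp6*.
Igfbp2: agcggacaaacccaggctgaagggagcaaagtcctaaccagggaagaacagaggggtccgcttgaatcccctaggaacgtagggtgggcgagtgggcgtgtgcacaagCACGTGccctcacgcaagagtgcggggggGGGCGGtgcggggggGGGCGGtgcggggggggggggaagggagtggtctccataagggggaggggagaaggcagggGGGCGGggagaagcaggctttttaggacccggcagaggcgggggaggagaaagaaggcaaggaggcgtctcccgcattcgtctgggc
Igfbp5: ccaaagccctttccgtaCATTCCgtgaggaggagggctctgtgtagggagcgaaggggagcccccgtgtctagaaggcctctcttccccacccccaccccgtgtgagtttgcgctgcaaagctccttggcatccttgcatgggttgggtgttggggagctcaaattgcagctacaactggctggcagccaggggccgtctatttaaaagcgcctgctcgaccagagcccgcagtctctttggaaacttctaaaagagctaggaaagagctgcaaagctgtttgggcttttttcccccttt
Igfbp3: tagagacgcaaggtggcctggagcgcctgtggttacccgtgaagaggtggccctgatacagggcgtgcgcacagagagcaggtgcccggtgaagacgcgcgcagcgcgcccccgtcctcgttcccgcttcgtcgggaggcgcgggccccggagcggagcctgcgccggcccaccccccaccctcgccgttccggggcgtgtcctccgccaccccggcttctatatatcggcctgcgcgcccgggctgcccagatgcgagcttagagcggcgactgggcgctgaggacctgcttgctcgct
Igfbp6: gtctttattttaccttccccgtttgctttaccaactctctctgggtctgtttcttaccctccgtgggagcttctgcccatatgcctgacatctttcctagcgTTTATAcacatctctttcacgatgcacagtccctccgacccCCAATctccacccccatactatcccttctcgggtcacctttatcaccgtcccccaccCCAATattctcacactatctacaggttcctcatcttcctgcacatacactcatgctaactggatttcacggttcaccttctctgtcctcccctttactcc

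The *Igfbp2* window shown held GGGCGG at 3 places and CACGTG at 1, and 67.0% of its bases were G or C. Over the 32851 windows of the same length in the table, GGGCGG was found in 35.7% and CACGTG in 7.15%, and the median G and C content was 52.7%. A second *Igfbp2* start site in the table, with its window at chr1:72825137-72825436 on the plus strand, had 57.3% G and C, neither of these motifs, and TGANTCA once, which 7.81% of windows hold. The *Igfbp5* window, whose gene body lies 5.59 kb from that of *Igfbp2*, held neither and had GGAATG once, a motif of 14.7% of windows. The *Igfbp6* window held TATAAA once and CCAAT at 2 places, which 13.6% and 37.4% of windows hold. The *Igfbp3* window held none of the 6 motifs. The pair of binding protein genes that was lower in TG thus shared no searched motif in these windows, and neither did the pair that was higher. A match is a description of the letters and not evidence of binding.

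All 6 binding proteins were expressed, and each separated the genotypes: *Igfbp2*, *Igfbp5* and *Igfbp7* were lower in both TG than in both WT libraries, and *Igfbp3*, *Igfbp4* and *Igfbp6* were higher. Among all 11524 genes tested, those whose FPKM averaged 0.5 or more, 20.3% were lower and 30.2% were higher in this sense. In the fit across all genes with limma, a call needed an adjusted p under 0.01 and a log2 difference of at least 1 in size. *Xist*, with a log2 difference of 2.34 for FPKM + 0.5 (limma adjusted p = 0.0112), missed the call. A gene at low FPKM can thus differ widely and not be called. Of the members, 9 passed the filter on low values, 2 were called down-regulated and 2 up-regulated, beside 0.469% and 0.607% of all genes tested. At an adjusted p under 0.05 the members called were 3 and 3, beside 1.05% and 1.99% of genes, and with the voom method on whole reads they were 3 and 3, beside 1.29% and 1.1%. Nothing is read from these counts, since this contrast chose the members.

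**Figure D1:**
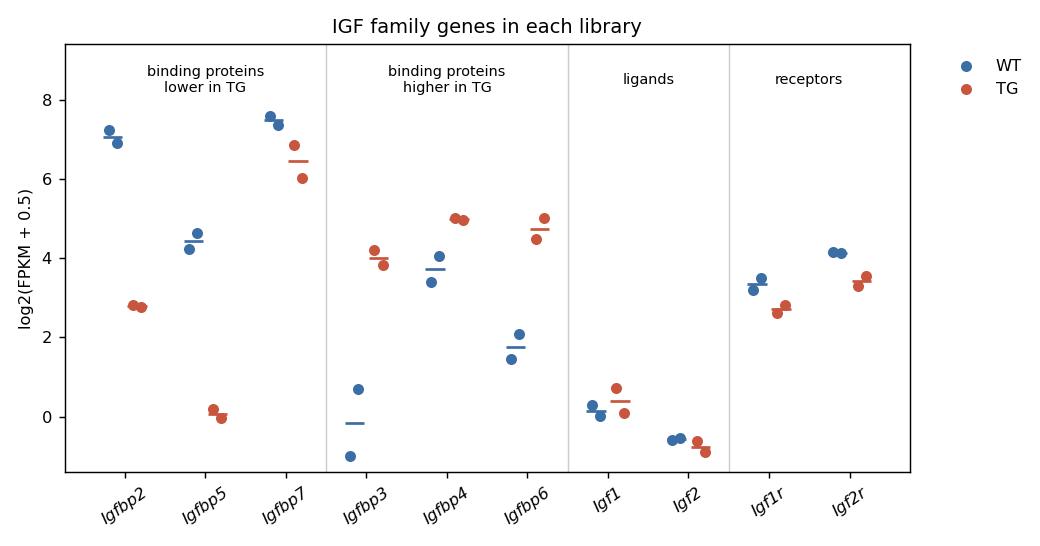
Each point is 1 library, with log2(FPKM + 0.5) on the vertical axis, the 10 genes on the horizontal axis, and the mean of the 2 libraries of a genotype as a line. WT and TG points are apart for all 6 binding proteins and both receptors, and overlap for *Igf1*.

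*Igfbp2* (gene ID 16008, chromosome 1, 72824480 to 72852474) encodes a binding protein that is abundant in fetal tissue. It was 150 FPKM in WT 1 and 118 in WT 2, against 6.56 in TG 1 and 6.35 in TG 2. Both TG libraries lay far below both WT libraries and close to each other, at 6.46 ± 0.144 against 134 ± 22.6 (SD, n = 2). The TG mean was 4.80% of the WT mean, a 20.8-fold lower level, and the log2 difference of FPKM + 0.5 was -4.27 (SE 0.19). It rested on 1802 and 2195 reads in WT and on 99 and 89 in TG.

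*Igfbp5* (gene ID 16011, chromosome 1, 72858065 to 72874865), next to *Igfbp2* on the chromosome, encodes a binding protein that also attaches to extracellular matrix. It was 18.2 FPKM in WT 1 and 24.2 in WT 2, against 0.647 in TG 1 and 0.475 in TG 2. The genotypes did not overlap, and TG libraries held only 44 and 30 reads against 984 and 2021 in WT. The mean level was 21.2 ± 4.23 in WT and 0.561 ± 0.121 in TG, a 37.8-fold lower level. The log2 difference was -4.35 (SE 0.26), which understates the fold at such low TG levels because of the added 0.5.

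*Igfbp7* (gene ID 29817, chromosome 5, 77349240 to 77408045) encodes a secreted relative of the family that binds IGFs with low affinity. It was 193 FPKM in WT 1 and 164 in WT 2, against 116 in TG 1 and 64.9 in TG 2. TG libraries were below both WT libraries but differed 1.79-fold from each other. The TG mean was 90.5 ± 36.1 against 178 ± 20.8 in WT, or 50.8% of it, with a log2 difference of -1.03 (SE 0.25). The difference was -1.45 without TG 1 and -0.61 without TG 2, so its size depends on which TG library is taken.

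*Igfbp3* (gene ID 16009, chromosome 11, 7206086 to 7215498) encodes the main IGF carrier of serum. It was listed at 0 FPKM in WT 1 and reached 1.13 in WT 2, against 18.0 in TG 1 and 13.6 in TG 2. The genotypes did not overlap, with 0 and 38 reads in WT and 492 and 346 in TG. The mean was 15.8 ± 3.08 in TG and 0.566 ± 0.80 in WT, and the log2 difference was 4.16 (SE 0.46).

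The WT libraries differed from each other for *Igfbp3*: at the WT 2 level, 24.6 reads were to be found in WT 1, which had none. The upper limit of an exact 95% Poisson interval for WT 1 was 0.170 FPKM, below the interval of WT 2, 0.801 to 1.55 FPKM. These intervals cover counting error only. The TG mean was 14.0-fold above WT 2. The log2 difference was 5.02 without WT 2 and 3.31 without WT 1.

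*Igfbp6* (gene ID 16012, chromosome 15, 102144186 to 102149512) encodes the binding protein with a preference for IGF2. It was 2.22 FPKM in WT 1 and 3.71 in WT 2, against 21.8 in TG 1 and 31.6 in TG 2. Both TG libraries lay above both WT libraries, although each pair differed within itself. The mean was 26.7 ± 6.92 in TG and 2.97 ± 1.05 in WT, an 8.98-fold higher level, with a log2 difference of 2.98 (SE 0.27). Without WT 2 the log2 difference was 3.29, and without WT 1 it was 2.66.

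*Igfbp4* (gene ID 16010, chromosome 11, 99040005 to 99052655) encodes a binding protein that restrains IGF action until the protease PAPPA cleaves it. It was 10.1 FPKM in WT 1 and 16.1 in WT 2, against 32.0 in TG 1 and 30.7 in TG 2. TG libraries were close to each other and above both WT libraries, which differed 1.60-fold. The mean was 31.4 ± 0.932 in TG and 13.1 ± 4.25 in WT, a 2.39-fold higher level, with a log2 difference of 1.26 (SE 0.23). The difference was 1.59 without WT 2 and 0.94 without WT 1.

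The 3 binding proteins with lower levels did not balance the 3 with higher levels in the amount of transcript. The summed level of all 6 was 373.8 FPKM in WT 1 and 327.1 in WT 2, against 195.0 in TG 1 and 147.7 in TG 2. Both TG sums were below both WT sums, and the TG mean of 171 ± 33.5 was 0.489 of the WT mean of 350 ± 33.0 (SD, n = 2). *Igfbp2*, *Igfbp5* and *Igfbp7* together had 334 ± 39.2 FPKM in WT cells and 97.5 ± 36.4 in TG cells. *Igfbp3*, *Igfbp4* and *Igfbp6* together had 16.6 ± 6.11 and 73.9 ± 2.90 FPKM. The groups and the sum are made of the values that chose the members, so these are descriptions and not independent results.

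The makeup of the sum is given by gene, for groups formed on these same values. The genes that were higher in TG gave 3.30% and 6.41% of the summed level in WT and 36.8% and 51.4% in TG. *Igfbp2* gave 40.2% and 36.2% in WT and 3.36% and 4.30% in TG, while *Igfbp7* was the largest single contributor in every library, at 44.0% to 59.5%. *Igfbp4*, *Igfbp6* and *Igfbp3* each gave at most 4.93% in a WT library and at least 9.23% in a TG library. Without *Igfbp7*, which varied the most between TG libraries relative to its level among the 3 lower genes, the sum was 181 and 164 FPKM in WT and 79.0 and 82.7 in TG.

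**Figure D2:**
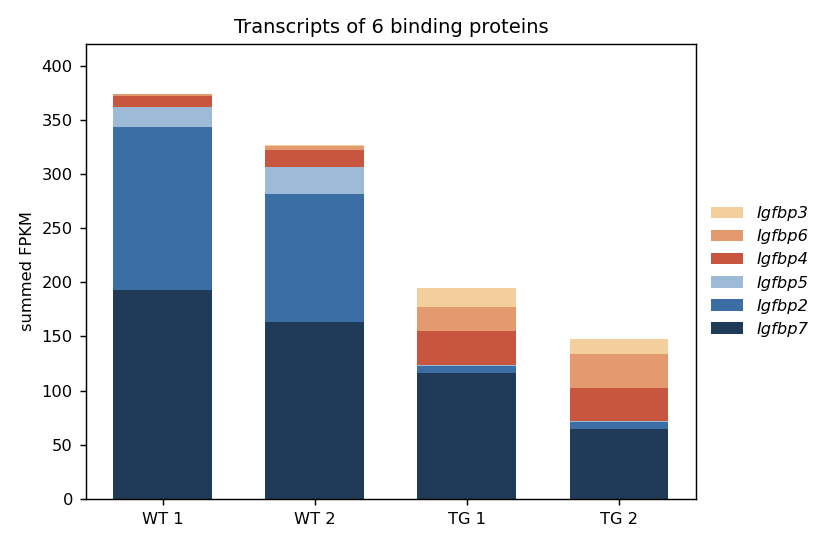
Bars give the FPKM of the 6 binding proteins, stacked, in each library, with genes that were lower in TG in blue shades and genes that were higher in orange and red shades. The bars reach 373.8 and 327.1 FPKM in WT and 195.0 and 147.7 in TG, and the blue *Igfbp2* band is wide in WT and narrow in TG.

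The ligand genes were near the lower end of the measured range in both genotypes. *Igf1* (gene ID 16000, chromosome 10, 87858265 to 87937047), the ligand that growth hormone induces in liver, was 0.726 FPKM in WT 1 and 0.512 in WT 2, against 1.14 in TG 1 and 0.565 in TG 2. The genotypes overlapped, TG 2 lying between the WT libraries, and the log2 difference was 0.25 (SE 0.43). *Igf2* (gene ID 16002, chromosome 7, 142650768 to 142666816), the paternally expressed fetal ligand, was 0.169 FPKM in WT 1 and 0.187 in WT 2, against 0.153 in TG 1 and 0.0413 in TG 2. It was below the filter on low values, with 7 and 12 reads in WT and 8 and 2 in TG. Both TG values were below both WT values. The exact 95% Poisson intervals of the 4 libraries, which cover counting error only, overlapped.

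The receptors were both lower in TG. *Igf1r* (gene ID 16001, chromosome 7, 67952257 to 68233668), the signalling receptor, was 8.65 FPKM in WT 1 and 10.8 in WT 2, against 5.62 in TG 1 and 6.53 in TG 2. The TG mean was 62.5% of the WT mean, with a log2 difference of -0.63 (SE 0.23). *Igf2r* (gene ID 16004, chromosome 17, 12682406 to 12769706), the clearance receptor, was 17.3 FPKM in WT 1 and 17.0 in WT 2, against 9.30 in TG 1 and 11.2 in TG 2. The TG mean was 60.0% of the WT mean, with a log2 difference of -0.72 (SE 0.20). Genotypes did not overlap for either receptor, beside 20.3% of all genes tested that were lower in both TG than in both WT libraries. Neither receptor reached the log2 difference of at least 1 in size that a call needs. *Airn*, an RNA transcribed antisense to *Igf2r* that overlaps it, was 0.674 and 0.536 FPKM in WT and 0.329 and 0.488 in TG, and since the counting is not stated to use strand, reads of the overlap cannot be assigned to a gene with certainty.

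In WT cells the order of the mean levels was *Igfbp7*, *Igfbp2*, *Igfbp5*, *Igf2r*, *Igfbp4*, *Igf1r*, *Igfbp6*, *Igf1*, *Igfbp3* and *Igf2*. The ranges of the libraries overlapped for *Igfbp4* and *Igf1r*, for *Igf1* and *Igfbp3*, and for *Igfbp3* and *Igf2*, so the order within these pairs is not set. In TG cells the order was *Igfbp7*, *Igfbp4*, *Igfbp6*, *Igfbp3*, *Igf2r*, *Igfbp2*, *Igf1r*, *Igf1*, *Igfbp5* and *Igf2*. Here *Igfbp4* and *Igfbp6*, *Igfbp2* and *Igf1r*, and *Igf1* and *Igfbp5* overlapped. *Igfbp2* went from rank 2 to rank 6 and *Igfbp5* from rank 3 to rank 9, while *Igfbp3* went from rank 9 to rank 4.

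Other genes, which the rule did not use, were counted in 8 lists. They include a list of genes beside the members, taken for their position on the chromosome and not as pathway genes. The lists were chosen with earlier results of these data known, so their counts are a description. Of 105 genes, 80 passed the filter and 17 were listed at 0 in all libraries. By limma with Benjamini-Hochberg adjustment over all genes tested, 2 were down-regulated and 2 up-regulated, beside 0.469% and 0.607% of all genes tested. The median log2 difference of the 80 was -0.083, against 0.071 for all genes tested.

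The proteins with an IGFBP-type domain held 2 of these calls among 7 genes tested. *Ccn2*, the matricellular connective tissue growth factor, was 605 and 590 FPKM in WT and 259 and 252 in TG, a log2 difference of -1.22 (SE 0.17, limma adjusted p = 0.0044). *Ccn3*, a matricellular relative, was 0.946 and 2.29 FPKM in WT and 8.75 and 7.93 in TG, a log2 difference of 2.14 (SE 0.33, limma adjusted p = 0.0066). Relatives within the domain family thus moved in opposite directions. Both calls were lost when any 1 library was left out, and without WT 1 or WT 2 nearly all calls over all genes tested were lost too. Without 1 library the log2 differences were -1.24 to -1.20 for *Ccn2* and 1.66 to 2.61 for *Ccn3*.

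Genes beside the members gave the other calls among 5 tested. *Tns1*, a focal adhesion protein encoded 1035 kb from *Igfbp5*, was 38.2 and 42.9 FPKM in WT and 14.1 and 14.9 in TG, a log2 difference of -1.45 (SE 0.18, limma adjusted p = 0.0022). *H19*, the maternally expressed noncoding RNA 72.6 kb from *Igf2*, was 3.90 and 5.56 FPKM in WT and 19.5 and 31.3 in TG, a log2 difference of 2.29 (SE 0.27, limma adjusted p = 0.0013). *H19* was up-regulated while *Igf2*, with which it shares an imprinted domain, had 2 to 12 reads per library. Both calls were lost without WT 1 and without WT 2, as were nearly all calls over all genes tested. Without 1 library the log2 differences were -1.54 to -1.37 for *Tns1* and 1.96 to 2.62 for *H19*. The tensin genes near the other binding protein genes were not called: *Tns2* had a log2 difference of 0.18 (limma adjusted p = 0.681) and *Tns3* of -0.090 (limma adjusted p = 0.838), and *Tns4* was listed at 0.

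Of 9 proteases and inhibitors tested, none was called by limma at 0.01. At 0.05, 1 was called in each direction, beside 1.05% down-regulated and 1.99% up-regulated of all genes tested. *Pappa*, the protease that cleaves IGFBP4, was 2.67 and 2.76 FPKM in WT and 0.409 and 0.615 in TG, a log2 difference of -1.68 (SE 0.35, limma adjusted p = 0.0257). *Htra1*, a serine protease that cleaves several IGFBPs, was 11.5 and 9.14 FPKM in WT and 22.7 and 20.6 in TG, a log2 difference of 1.04 (SE 0.20, limma adjusted p = 0.0206). Over the alternatives the adjusted p by limma, voom included, ranged from 1.9e-05 to 0.229 for *Pappa* and from 0.0069 to 0.190 for *Htra1*. The lowest values came from voom on whole reads and the highest without WT 2.

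None of 15 receptors and adaptors, 27 genes of the PI3K, AKT and mTOR relay or 12 FOXO target genes was called by limma. Over all genes tested, 0.469% were called down-regulated and 0.607% up-regulated, so lists of this size can hold no call at the background share. With voom 1 gene of the relay was down-regulated, beside 1.29% of all genes. The median log2 differences of the 3 lists by limma were -0.17, -0.017 and -0.20. The insulin receptor gene *Insr* had a log2 difference of -0.19 (limma adjusted p = 0.811). The docking protein genes *Irs1* and *Irs2* had log2 differences of -0.21 and -0.61 (limma adjusted p = 0.660 and 0.181). *Grb10*, an imprinted adaptor that inhibits IGF1R and the insulin receptor, was 94.6 and 110 FPKM in WT and 71.7 and 69.2 in TG, a log2 difference of -0.53 (limma adjusted p = 0.127). *Grb14*, a related adaptor, had one of 1.08 (limma adjusted p = 0.194) on levels of at most 2.19 FPKM. With voom the adjusted p was 0.038 for *Irs2* and 0.018 for *Grb10*, and neither reached a log2 difference of 1 in size.

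The IGF2 mRNA-binding protein genes *Igf2bp1*, *Igf2bp2* and *Igf2bp3* had log2 differences of 0.41, 0.064 and -0.096 (limma adjusted p = 0.325, 0.888 and 0.839), and the sign for *Igf2bp2* turned under upper-quartile scaling, quantile normalization and voom. Among other carriers and insulin-like ligands, *Igfbp1*, whose gene lies 3.54 kb from *Igfbp3*, was listed at 0 in all libraries, as were 5 of the remaining genes of that list. The gene next to *Igfbp3* thus gave no reads in either genotype, whereas *Igfbp5*, next to *Igfbp2*, was lower in TG as *Igfbp2* was.

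**Figure D3:**
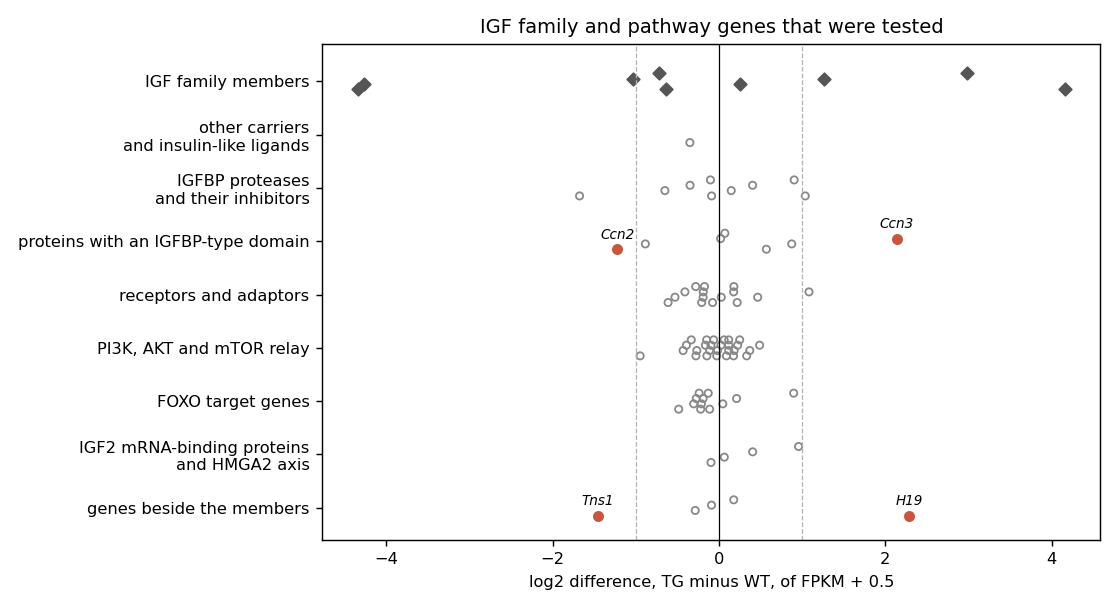
Each symbol is a gene that passed the filter, placed by its log2 difference of FPKM + 0.5 (TG minus WT) on the horizontal axis and by its list on the vertical axis, with dashed lines at -1 and 1. Filled diamonds are the 9 family members tested, red circles the 4 list genes called by limma (*Ccn2*, *Ccn3*, *Tns1* and *H19*) and open circles the rest, most of which lie between the dashed lines.

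The surroundings of the binding protein genes were examined for tested genes within 1.5 Mb. Over all genes tested, limma called 0.469% down-regulated and 0.607% up-regulated. Around *Igfbp2* and *Igfbp5*, 7 of 11 other genes were lower and 4 were higher in TG, with a median log2 difference of -0.045, and *Tns1* was the single call. Around *Igfbp3*, 7 of 23 were lower and 16 higher, with a median of 0.16. The single call there was *Ramp3*, a receptor activity-modifying protein gene, at 0 and 0.510 FPKM in WT and 10.9 and 11.0 in TG (log2 difference 4.01, SE 0.36, limma adjusted p = 0.0004). Without WT 2 its log2 difference was 4.52, and without WT 1 it was 3.50 and the call was lost. Around *Igfbp6*, 40 of 47 were higher and 7 lower, with a median of 0.18, beside 57.5% higher and a median of 0.071 for all genes tested, and *Krt18* was the single call (log2 difference 2.56, SE 0.29, limma adjusted p = 0.0012). Around *Igfbp4*, 22 of 43 were lower and 21 higher, and the calls were *Krt19* and *Psmb3*, both up-regulated. The calls of *Krt18*, *Krt19* and *Psmb3* were lost without WT 1 and without WT 2, and that of *Psmb3* also without TG 1. Nearly all calls over all genes tested were lost without WT 1 or WT 2, so those losses are not particular to the genes named. Without 1 library the log2 differences were 2.17 to 2.95 for *Krt18*, 2.10 to 2.61 for *Krt19* and 1.33 to 2.01 for *Psmb3*.

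**Figure D4:**
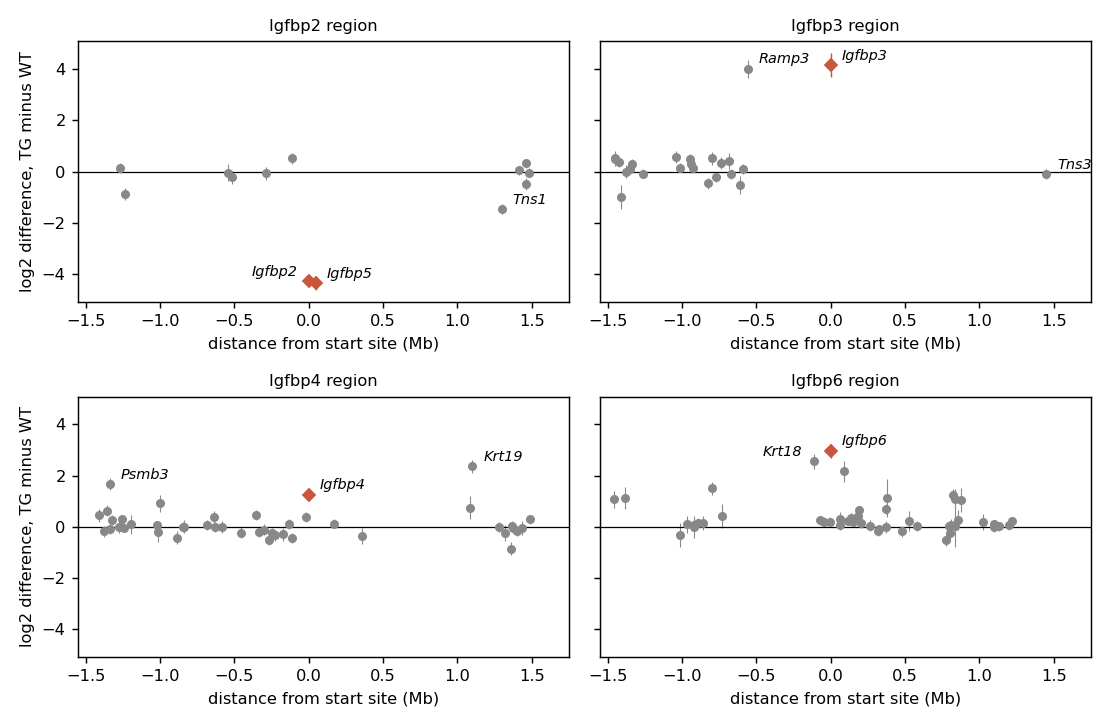
Each panel plots the tested genes within 1.5 Mb of a binding protein gene, with distance from its start site in Mb on the horizontal axis and the log2 difference (TG minus WT, with its SE as a bar) on the vertical axis. Red diamonds are binding protein genes, grey points are other genes, and most grey points lie near 0, with *Tns1*, *Ramp3*, *Krt18*, *Krt19* and *Psmb3* apart.

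Taking the tested genes directly on each side of each member, 18 were not members themselves. By limma, 1 of them (*Tns1*) was down-regulated and 2 (*H19* and *Ramp3*) up-regulated, beside 0.469% and 0.607% of all genes tested. These calls are the ones already given above. The log2 differences of the other neighbours ranged from -0.79 to 1.22. Across the genome, the profiles most like the mean of *Igfbp2* and *Igfbp5* over the 4 libraries were those of *Srpx2*, *Eng* and *Thbs2*, at Euclidean distances of 0.917, 1.11 and 1.12 in log2(FPKM + 0.5) centred on each gene. *Igfbp2* and *Igfbp5* lay 0.548 apart. Those most like the mean of *Igfbp3* and *Igfbp6* were the profiles of *Ramp3* and *Id2*, at 0.455 and 0.640. *Igfbp3* and *Igfbp6* lay 1.55 apart. The distances within a pair run from gene to gene and not to the mean of the pair, so they cannot be set against the others. With 2 libraries per genotype, these profiles rest largely on the genotype difference that chose the members, so the ranking is a description. *Srpx2* differed 5.01-fold between its TG libraries.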

How the data were processed

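RNA-seq was performed by the authors on 2 WT and 2 TG libraries. Per the study's methods, paired-end reads were aligned to mm10 with Rsubread, counted per gene and converted to FPKM, the deposited unit, with 1 column per library. DESeq was used by the authors for testing, and its results were not used here. Versions and the strand setting of the counting are not given in the sources used here.

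Genotypes were compared with limma (version 3.58.1, R 4.3.3) on log2(FPKM + 0.5), using a variance trend in eBayes. The 11524 genes whose FPKM averaged 0.5 or more were tested, and p-values were adjusted by Benjamini-Hochberg. A call needed an adjusted p under 0.01 and a log2 difference of at least 1 in size. Whole reads were recovered from the FPKM steps for 15475 of the 15530 genes above 0 (99.6%, within a relative difference of 1e-05), and for 1083 genes the exonic length decided a shared multiple. They gave depths, Poisson intervals and a voom fit as an alternative. The fit was tested on simulated data. Promoter windows and gene positions came from RefSeq on GRCm38.p6, and all 10 members matched.

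The members, the lists and the rule for named genes were chosen with earlier results of these data known. Named were all members, every list gene called or separated with a log2 difference of at least 1, fixed pathway genes, the 3 nearest profiles of each pair (1 is not reported here) and the direct neighbours. *Krt18*, *Krt19*, *Psmb3*, *Airn* and the markers were named after their values were seen. Alternatives were other pseudocounts, filters, scalings, thresholds, no variance trend, a replicate block, voom and leaving out each library, and for *Ramp3*, *Krt18*, *Krt19* and *Psmb3* they were added after seeing the data. With 2 against 2 libraries, an exact two-sided permutation test cannot go below p = 0.333, so none is given.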

Additional observations from a re-analysis of the deposited data

How the results depend on the processing

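With 2 libraries per genotype, the counts of calls depended on how the spread was estimated. The limma log2 differences do not use that spread, and those of the members mostly held under other pseudocounts, scalings and without single libraries. Over all genes, limma called 54 down-regulated and 70 up-regulated. It called 1 and 0 with all genes above 0. In that fit, 222 and 429 had an unadjusted p under 0.05 and a log2 difference of at least 1 in size. The calls were 6 and 3 with no variance trend and 8 and 12 with the replicate number as a block. At an adjusted p under 0.05 they were 121 and 229, and with voom on whole reads 148 and 126. Quantile normalization gave 55 and 47. Leaving out 1 library, which leaves a genotype with a lone library assumed to vary like the others, gave 1 to 47 and 0 to 66. Dropping WT 1 gave 1 and 0, and dropping WT 2 gave 2 and 7. The 2 and 2 calls of the 8 lists became 0 and 0 by limma with all genes above 0 and with no variance trend. With all genes above 0, the unadjusted counts over all genes were the 222 and 429 given above. The list calls were 0 and 1 with the block, and 4 were down-regulated with voom. Fewer were called in each direction whichever library was left out. Same-numbered libraries did not deviate together (r = -0.028 over 11524 genes). Whether they share a batch or source is not given and cannot be told from this correlation.

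Adjusted p-values by limma (voom included) over the alternatives ranged from 1.2e-07 to 0.0651 for *Tns1*, 7.2e-06 to 0.0565 for *H19*, 5.5e-07 to 0.0655 for *Ccn2* and 0.0011 to 0.0983 for *Ccn3*. *Igf1* turned to -0.065 without TG 1, within a range of -0.065 to 0.56. *Igf2bp2* was -0.067 with quantile normalization, -0.0039 with upper-quartile scaling and -0.0017 with voom, and -0.042 to 0.17 without 1 library. No other tested member changed direction under the 12 alternatives run for it, and *Igf2* was not tested. The other filters and the replicate block cannot change a member's log2 difference, so those alternatives add no support to it. *Igfbp3* ranged from 3.31 to 6.11 and *Igfbp5* from -5.29 to -3.82, with the pseudocount and voom giving the extremes of *Igfbp5*. The summed binding protein level of TG over WT ranged from 0.421 to 0.557 without 1 library. Depth limits statements on *Igf2*, *Igf1* and the WT level of *Igfbp3*.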

Other observations

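*Igfbp3*, *Ramp3* and *Xist* were the 3 genes with 0 reads in WT 1 and at least 100 reads in both TG libraries, a set chosen after the values were seen. In WT 2 they had 38, 8 and 28 reads, at 7.16%, 4.65% and 4.69% of the TG mean. *Ramp3* had 139 and 131 reads in TG, and *Xist* had 489 and 449. The cause of these reads in WT 2 was not tested.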
